A study of Danio rerio with 9 samples.

Results

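Germ plasm and primordial germ cell genes were followed in zebrafish gastrulae exposed to the wood preservative and biocide pentachlorophenol. The genes, chosen by name, were ddx4 (Entrez gene 30263), dazl (58039), nanos3 (140631), dnd1 (373074), piwil1 (368200) and tdrd7a (406379). A probe set was counted as theirs where the platform annotation gave it a single gene and the Entrez identifier of that gene was one of these. All 6 genes, of 8793 named genes in all, were on the array. They had 8 of its 15617 probe sets, because dnd1 and piwil1 had 2 probe sets each. All 8 probe sets passed the filter on low signal described with the tests. The study hybridised biotin-labelled cRNA, made from total RNA of whole wild-type embryos of the Tuebingen strain about 8 h after fertilisation, to 9 Affymetrix arrays. The groups were embryos in deionized water as the control, embryos exposed to 20 µg/L pentachlorophenol and embryos exposed to 50 µg/L pentachlorophenol, with 3 arrays each that the labels call biological replicates. Eggs came from short timed collections, and embryos were picked by eye for their stage before RNA extraction in all 3 groups. The number of embryos pooled per sample and the number of clutches are not given, so the p-values reflect the spread among these arrays, part of which may be technical.

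In zebrafish, germ cell fate is inherited. The egg carries germ plasm, an aggregate of RNA and protein built during oogenesis, which gathers at the first cleavage furrows and is taken up by the few cells that become primordial germ cells. By gastrulation these cells have begun to move toward the future gonad. Copies of the same maternal mRNAs that lie outside the germ plasm are cleared from somatic cells after the maternal-to-zygotic transition, in part through a microRNA family, while germ cells protect them. In RNA from whole embryos, fewer germ cells and less of an mRNA per germ cell cannot be told apart, and a copy in a germ cell cannot be told from one left in somatic cells.

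The values were MAS5 signals, an intensity per probe set on a linear scale. Since probe sets differ in how well they bind, a higher signal of 1 probe set than of another was not read as more mRNA. Signals of different probe sets were set together in the filter, the background level, the choice among a gene's probe sets, the percentiles and the marker sums. The authors' scaling gave all 9 arrays the same trimmed mean, but median signals ran from 97.9 to 152, and the 3 arrays of the 50 µg/L group had the highest (142 to 152). The array least like the rest was control replicate 3, whose median Spearman correlation with them was 0.847. The value was 0.878 for 50 µg/L replicate 1 and lay between 0.906 and 0.922 for the remaining arrays. The 6 arrays numbered 1 and 2 were deposited with 1 decimal and the 3 numbered 3 with more, so members were also compared within those 6 arrays, 2 of each group. As a background level, the 95th percentile of the 17 tag control probe sets of the manufacturer was taken on each array. It lay between 50.6 and 114 and was highest on control replicate 3. Of 19 markers of gastrula tissues on the array, 16 were above this level on all arrays. None of 6 markers of later somatic tissues was above it on all arrays. Of these, actc1b was above it on 7 of 9 arrays, neurog1 and hbae3 on 3, myod1 on 2, gata1a on 1 and myog on none.

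In their group means, the helicase gene was higher and the RNA-binding gene dazl lower in both exposed groups than in water. The gene ddx4, also called vasa, encodes the RNA helicase that marks germ cells in many animals. Its signals were 535, 811 and 299 in water, 727, 852 and 1007 at 20 µg/L, and 693, 1025 and 1148 at 50 µg/L. The group means were 548 ± 256 in water, 862 ± 141 at 20 µg/L and 955 ± 235 at 50 µg/L (SD, n = 3 each), and the arrays of the groups overlapped because control replicate 2 lay within the range of both exposed groups. The gene dazl encodes an RNA-binding protein that promotes translation of germ cell mRNAs. Its signals were 101, 142 and 178 in water, 81.4, 86.5 and 71.5 at 20 µg/L, and 88.2, 101 and 59.6 at 50 µg/L. All 6 exposed arrays lay below all 3 control arrays, although 50 µg/L replicate 2 (100.7) missed control replicate 1 (100.9) by very little. The probe set was dim: it was above the tag level on 7 of 9 arrays, and the exceptions were replicate 3 at both doses.

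The repressor nanos3 and the leading probe set of the mRNA protector dnd1 were lowest at 20 µg/L and highest at 50 µg/L in their means. The gene nanos3 encodes a translational repressor that primordial germ cells need to survive, and its maternal mRNA sits in the germ plasm. Its signals were 420, 542 and 321 in water, 320.4, 308 and 285 at 20 µg/L, and 563, 938 and 437 at 50 µg/L. The 20 µg/L arrays were the most uniform (305 ± 17.8) and lay below all others, replicate 1 (320.4) by very little below control replicate 3 (321.1), while the 50 µg/L arrays (646 ± 260) overlapped the control arrays (427 ± 110.5). The protein made from dnd1 binds germ plasm mRNAs in zebrafish and keeps microRNAs from reaching them. Its leading probe set, the one with the higher mean log2 signal, gave 156, 116 and 182 in water, 115, 114 and 135 at 20 µg/L, and 227, 217 and 279.95 at 50 µg/L. Every 50 µg/L array was above every other array, whereas water and 20 µg/L overlapped. This probe set carries the suffix that the manufacturer uses for probes shared by several transcripts. The second dnd1 probe set was unstable in the control, with 134, 367 and 9.91 in water, a coefficient of variation of 106%. It gave 98.6, 111 and 60.1 at 20 µg/L and 133, 115 and 158 at 50 µg/L, and was above the tag level on 7 of 9 arrays.

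The signal of tdrd7a separated the 50 µg/L arrays from the others, and that of piwil1 did not. The gene piwil1, named ziwi in zebrafish, encodes a Piwi protein that binds piRNAs and silences transposons in germ cells. Its leading probe set gave 183.5, 287 and 250.5 in water, 189.5, 213 and 133 at 20 µg/L, and 203, 245 and 193 at 50 µg/L. Its second probe set gave 136, 93.7 and 145 in water, 84.5, 127 and 91.2 at 20 µg/L, and 233, 133 and 146 at 50 µg/L. The probe sets disagreed on the order of 50 µg/L and water: the leading one averaged 214 ± 27.7 at 50 µg/L and 240 ± 52.7 in water, and the second 171 ± 54.2 at 50 µg/L and 125 ± 27.6 in water. The gene tdrd7a encodes a Tudor domain protein of germ granules, which organises their structure in zebrafish. Its signals were 166, 138 and 231 in water, 147, 137 and 180.1 at 20 µg/L, and 307, 331 and 392 at 50 µg/L. The lowest 50 µg/L array was 1.33 times the highest array of the other groups, control replicate 3, and water and 20 µg/L overlapped.

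**Figure D1:**
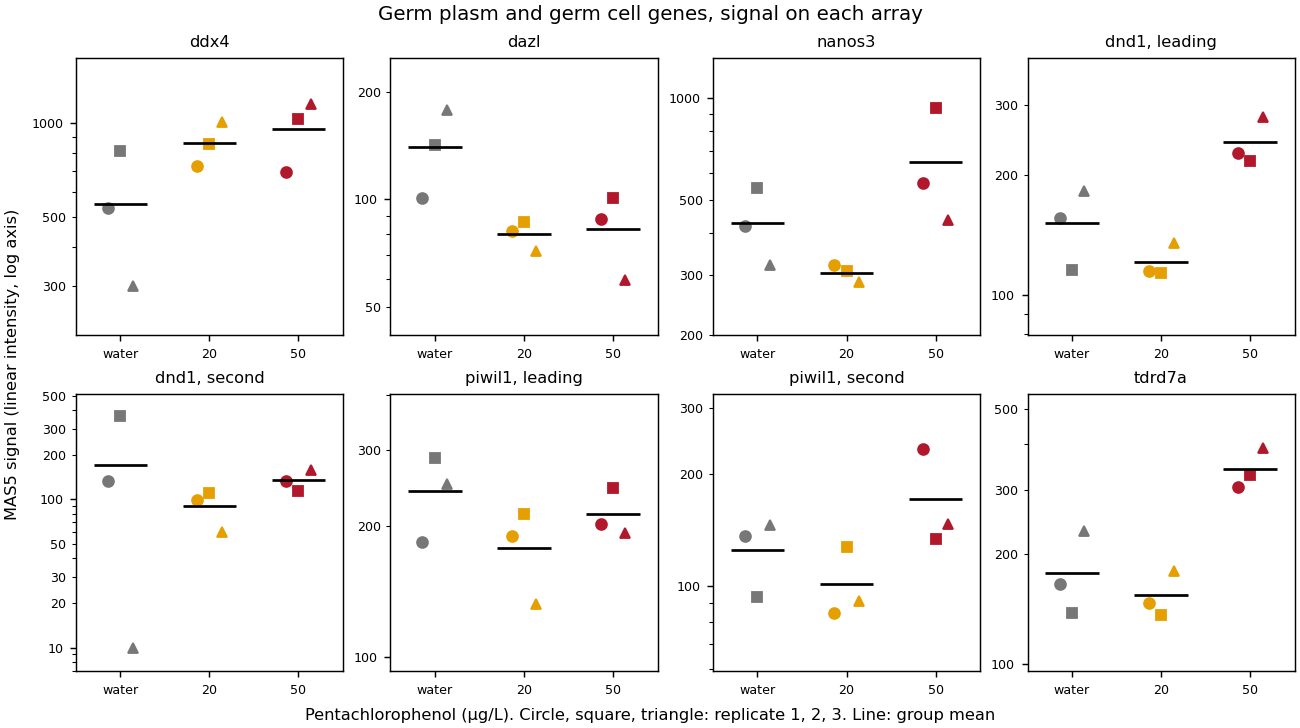
MAS5 signal (linear intensity on a log axis) of the 8 probe sets of the 6 genes on each array, by pentachlorophenol concentration. Symbols are replicates and lines are group means (n = 3). For tdrd7a and the leading dnd1 probe set the 3 arrays at 50 µg/L lie above all 6 others, and for dazl the exposed arrays lie below the water arrays.

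At 50 µg/L against water, tdrd7a and the leading dnd1 probe set were higher on every array and dazl was lower on every array. However, no gene of the set passed the test. Changes were tested with limma on log2(signal + 1) over the 9301 probe sets left after the manufacturer's controls and the lowest 40% by mean were set aside. The p-values were adjusted by Benjamini-Hochberg over all of these, with a threshold of 0.05. With this test 0 of 6 genes passed, where 4.48% of all probe sets were called. Unadjusted p was under 0.05 for 3 genes (ddx4, dnd1 and tdrd7a), and for 2281 of all 9301 probe sets. The closest was tdrd7a, with 343 ± 44.1 at 50 µg/L and 178 ± 47.9 in water, a log2 change of 0.97 (95% interval 0.32 to 1.61, limma adjusted p = 0.0777). Of all probe sets tested, 16.6% had a larger change in either direction. The change was 0.88 for ddx4 (interval 0.11 to 1.66, limma adjusted p = 0.155) and 0.69 for dnd1 (interval 0.03 to 1.34, limma adjusted p = 0.189). It was 0.55 for nanos3 (limma adjusted p = 0.312), -0.15 for piwil1 (limma adjusted p = 0.79) and -0.75 for dazl (interval -1.56 to 0.07, limma adjusted p = 0.242). The second probe sets of dnd1 and piwil1 overlapped water, with changes of 0.73 and 0.43 (limma adjusted p = 0.663 and 0.493).

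Read against all probe sets, the gene median was 0.62, and that of all probe sets tested was 0.10. Of the 8 probe sets, 2 had all 50 µg/L arrays above all water arrays, against 17.8% of all probe sets, and 1 had all of them below, against 10.4%. With values under the tag level raised to it, the dazl change was -0.69. With 50 µg/L replicate 1 left out the changes of tdrd7a, ddx4 and dazl were 1.04, 1.10 and -0.81, and with control replicate 3 left out they were 1.17, 0.50 and -0.56. Without control replicate 3, tdrd7a had a limma adjusted p of 0.0521. Control replicate 2 was the highest water array for ddx4. With it left out, ddx4 passed, with a change of 1.22 (limma adjusted p = 0.0483). That fit called 7.75% of all probe sets, against 4.48% with all arrays. Among the 6 arrays with 1 decimal, the changes were 1.07 for tdrd7a (limma adjusted p = 0.0839), 0.36 for ddx4 and -0.34 for dazl, against 0.88 and -0.75 for ddx4 and dazl over all 9 arrays.

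**Figure D2:**
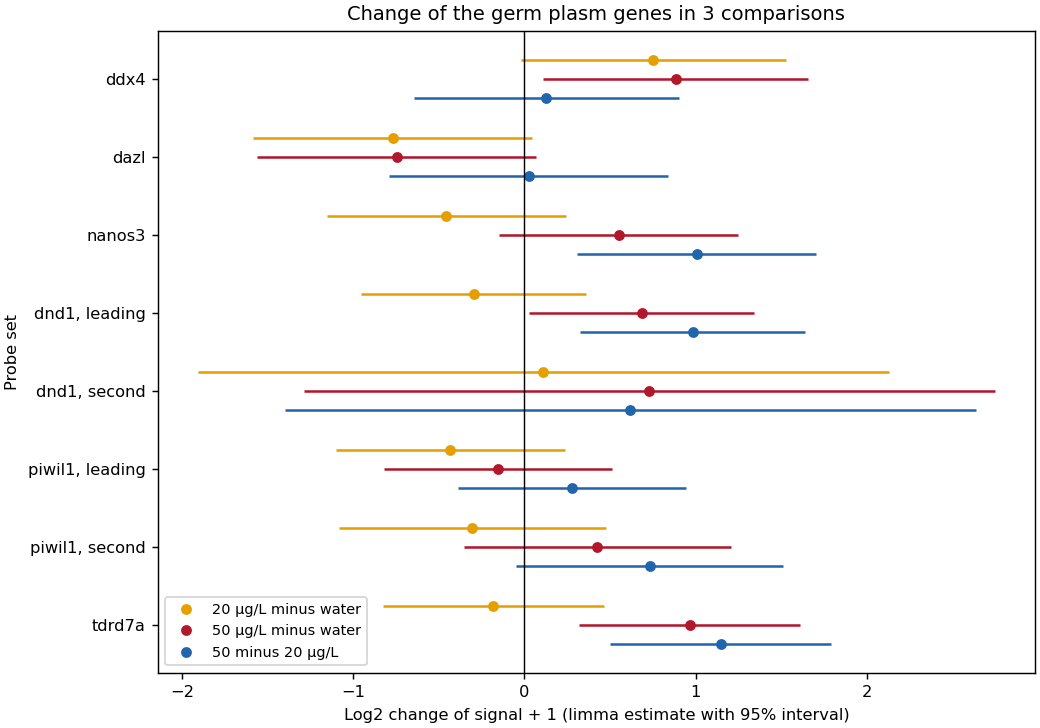
Log2 change of each probe set in the 3 comparisons, as the limma estimate with its 95% interval. The intervals of tdrd7a and the leading dnd1 probe set lie above 0 for 50 µg/L against water and for 50 against 20 µg/L, that of ddx4 lies above 0 for 50 µg/L against water, the interval of nanos3 lies above 0 for 50 against 20 µg/L, and the second dnd1 probe set has the widest intervals.

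At 20 µg/L against water, the germ plasm genes had log2 estimates mostly below 0. None of the 6 genes passed the limma test, none had an unadjusted p under 0.05, and the test called 0% of all probe sets (0 of 9301, with 731 at an unadjusted p under 0.05). The gene median was -0.36 (all probe sets -0.04), with 1 gene above 0 and 5 below, where 46.6% of all probe sets were above 0. The gene above 0 was ddx4, with 862 ± 141 at 20 µg/L and 548 ± 256 in water, a change of 0.75 (limma adjusted p = 0.626). For dazl the change was -0.77 (interval -1.59 to 0.04, limma adjusted p = 0.638). For nanos3 it was -0.46 (limma adjusted p = 0.715). Both dazl and nanos3 had all 20 µg/L arrays below all water arrays, which makes 2 of 8 probe sets, against 6.96% of all probe sets. No member had them all above, against 5.71%. The changes of dnd1, piwil1 and tdrd7a were -0.30, -0.43 and -0.18 (limma adjusted p from 0.72 to 0.888).

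Between the doses, tdrd7a, nanos3 and the leading dnd1 probe set were about 2-fold higher at 50 µg/L than at 20 µg/L, on every array, without passing the test. Here 0 of 6 genes passed, where limma called 1.39% of all probe sets. Unadjusted p was under 0.05 for these 3 genes, and for 1717 of all 9301 probe sets. The signal of tdrd7a averaged 343 ± 44.1 at 50 µg/L and 155 ± 22.7 at 20 µg/L, a log2 change of 1.15 (interval 0.50 to 1.79, 2.22-fold, limma adjusted p = 0.0782). Of all probe sets tested, 7.47% had a larger change. For nanos3 the means were 646 ± 260 at 50 µg/L and 305 ± 17.8 at 20 µg/L, a change of 1.01 (interval 0.31 to 1.71, limma adjusted p = 0.137). For dnd1 they were 241 ± 33.8 at 50 µg/L and 121 ± 12.0 at 20 µg/L, a change of 0.98 (interval 0.32 to 1.64, limma adjusted p = 0.131). All 6 genes had a change above 0, where 58.3% of all probe sets did, with a median of 0.63 (all probe sets 0.11). However, ddx4 (0.13), dazl (0.02) and piwil1 (0.28) had intervals that reached well below 0. Of the 8 probe sets, 5 had all 50 µg/L arrays above all 20 µg/L arrays, against 18.2% of all probe sets. The second probe sets of dnd1 and piwil1 were among them by a narrow margin, with a lowest 50 µg/L array 1.03 and 1.05 times the highest 20 µg/L array. None had all of them below, against 9.75%. Among the 6 arrays with 1 decimal, nanos3 and tdrd7a passed (limma adjusted p = 0.0336 and 0.0387), where 12.6% of all probe sets did. Without control replicate 3, tdrd7a passed (limma adjusted p = 0.0385), where 3.54% of all probe sets did. The 3 comparisons share arrays, so the 2 that contain the 50 µg/L arrays are not independent of each other.

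A moderated F test across the 3 groups called none of the genes, with limma adjusted p-values of 0.0918 for tdrd7a, 0.155 for dnd1, 0.176 for nanos3, 0.249 for ddx4, 0.32 for dazl and 0.601 for piwil1. The share of all probe sets that this F test called is not given here, so that count stands without a background. Because the median signal was higher on the 50 µg/L arrays, each member was also placed by its percentile among all probe sets of its own array, which no scaling can alter. By percentile, tdrd7a stood at 55.4, 53.6 and 62.3 on the water arrays, 56.6, 54.6 and 55.7 on the 20 µg/L arrays, and 63.9, 65.2 and 68.9 on the 50 µg/L arrays, which again lay above all others. The leading dnd1 probe set stood at 58.0, 57.8 and 62.9 at 50 µg/L, and its highest water array, replicate 3, stood at 57.7. Thus dnd1 kept its separation from water by a narrow margin. For dazl the 50 µg/L arrays (39.5, 44.0 and 33.5) stayed below the water arrays (45.5, 54.1 and 57.0), but the 20 µg/L arrays (46.9, 45.1 and 39.2) then overlapped them. For nanos3 the 20 µg/L arrays (68.97, 68.8 and 63.8) overlapped the water arrays (72.1, 76.7 and 68.8) as well, and stayed below the 50 µg/L arrays (74.8, 82.9 and 70.7). Against water, 2 of the 8 probe sets had all 50 µg/L arrays higher by percentile, against 12.1% of all probe sets. All of them were lower for 1 probe set, against 14% of all. By percentile, 3 of the 8 probe sets had all 50 µg/L arrays above all 20 µg/L arrays, in place of 5, against 12.4% of all probe sets, because the second probe sets of dnd1 and piwil1 then overlapped. Quantile normalization, which forces all arrays to 1 distribution, gave a median change of all probe sets at 50 µg/L against water of -0.04, in place of 0.10. Under it the changes were 0.71 for tdrd7a, 0.75 for ddx4, 0.42 for dnd1, 0.34 for nanos3, -0.43 for piwil1 and -0.96 for dazl.

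Other genes of the piRNA pathway or with Tudor domains were mostly not called. Of 15 listed genes of piRNA biogenesis and Tudor domain proteins, 7 were on the array and 6 were tested, of which 1 rose at 50 µg/L against water and none fell (median 0.56, all probe sets 0.10). Of all probe sets tested, 4.48% were called in this comparison. The riser was asz1, which encodes an ankyrin repeat protein that in mouse acts in piRNA production at germ cell mitochondria. Its signals were 91.2, 211 and 120 in water, 132, 84 and 112 at 20 µg/L, and 690.2, 589 and 348 at 50 µg/L. All 50 µg/L arrays were above all others, and the log2 change was 1.97 against water (SE 0.38, limma adjusted p = 0.0203) and 2.27 against 20 µg/L (limma adjusted p = 0.0188). For piwil2, the second zebrafish Piwi gene, the change against water was 0.44 (limma adjusted p = 0.449), for the Tudor gene tdrd6a -0.04 (0.949), for tdrd5 0.68 (0.381) and for the gene pld6, whose mouse product sits on mitochondria and acts in piRNA production, 0.05 (0.952). The Tudor and KH domain gene tdrkh had 161, 141 and 81.1 at 50 µg/L and 25.1, 87.6 and 72.8 in water, of which 1 array in water was above the tag level (change 1.15, limma adjusted p = 0.19).

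Among genes that build germ plasm or bind germline RNA, the organiser of the aggregate rose at 50 µg/L. Of 23 listed genes, 14 were on the array and 10 were tested, of which 3 rose against water (buc, h1m and zar1) and none fell, with a median of 0.63, where 4.48% of all probe sets were called. The gene buc, Bucky ball, encodes the protein around which zebrafish germ plasm and the Balbiani body of the oocyte assemble. Its signals were 30.9, 97.8 and 44.5 in water, 50.7, 68 and 85.7 at 20 µg/L, and 397, 380.4 and 203 at 50 µg/L. Only 1 water array was above the tag level, so the log2 change of 2.58 (SE 0.47, limma adjusted p = 0.015) was 1.91 with dim values raised to that level. Against 20 µg/L it was 2.21 (limma adjusted p = 0.0416). The filter on low signal took the mean over all 9 arrays, so the bright 50 µg/L arrays counted toward keeping buc. With no filter, buc passed against water (limma adjusted p = 0.0234) but not against 20 µg/L (0.0673). The oocyte linker histone h1m, whose product is enriched in zebrafish primordial germ cells, averaged 7650 ± 3204 at 50 µg/L and 1675 ± 1027 in water, a change of 2.33 (limma adjusted p = 0.0228). The RNA-binding gene zar1 averaged 878 ± 169 at 50 µg/L and 366 ± 124 in water (change 1.30, limma adjusted p = 0.0362). The genes that did not pass included granulito (gra), with a change of -0.37, the RNA-binding gene elavl2 with 0.25 and the polyadenylation factor cpeb1b with 0.98 (limma adjusted p = 0.0833). The relative nanos1 was above the tag level on 1 of 9 arrays and was not tested.

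**Figure D3:**
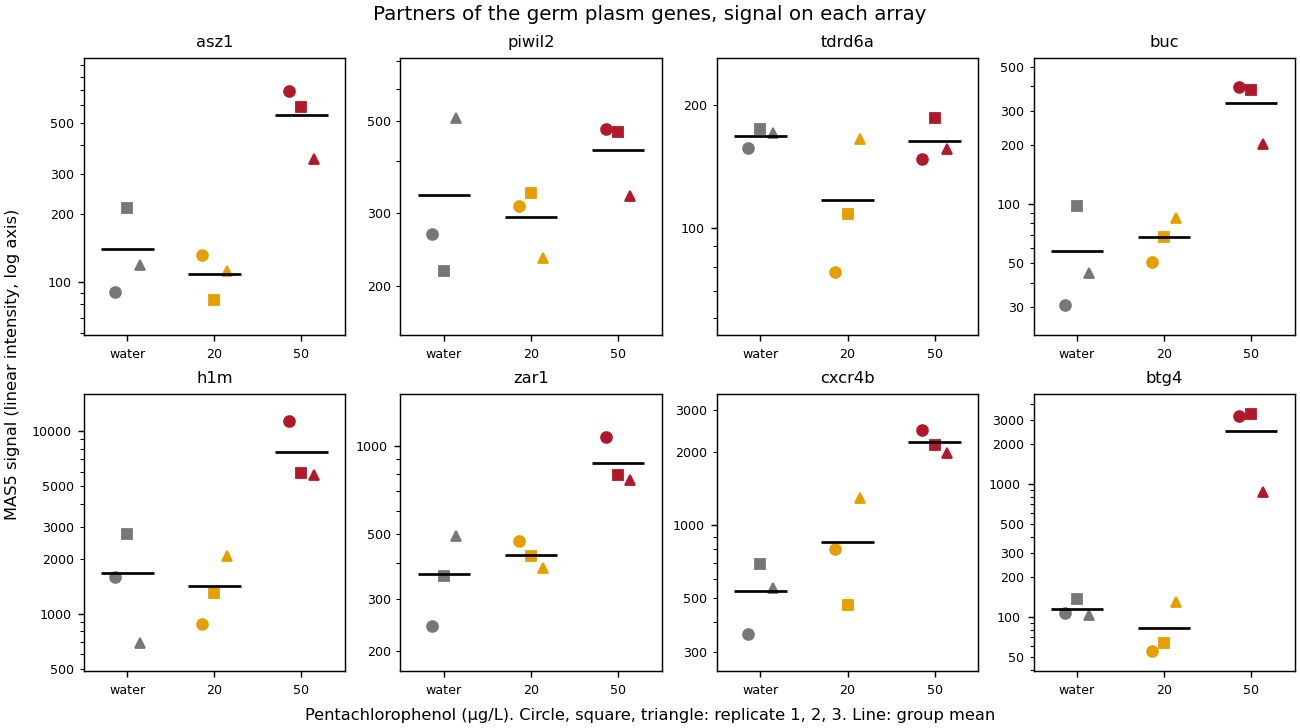
MAS5 signal (linear intensity on a log axis) of 8 partner genes on each array, by pentachlorophenol concentration. Symbols are replicates and lines are group means (n = 3). For asz1, buc, h1m, zar1, cxcr4b and btg4 all arrays at 50 µg/L lie above the water and 20 µg/L arrays, while piwil2 and tdrd6a overlap with water.

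Of the migration system, the receptor rose and the ligands did not pass. Germ cells in zebrafish follow the chemokine Cxcl12a through the receptor Cxcr4b, which somatic tissues of the gastrula also express. The signals of cxcr4b were 358, 693 and 554 in water, 797, 469 and 1301 at 20 µg/L, and 2482, 2136 and 1997 at 50 µg/L. The log2 change at 50 µg/L was 2.09 against water (SE 0.37, limma adjusted p = 0.0131) and 1.48 against 20 µg/L, which did not pass (limma adjusted p = 0.0708). The ligand genes cxcl12a and cxcl12b had changes of 1.08 (limma adjusted p = 0.172) and -0.15 (0.802), and the decoy receptor gene ackr3b, which removes the chemokine from somatic tissue, -0.27 (0.559). For cxcl12a the 50 µg/L arrays (856, 947 and 703) lay above the water arrays (370, 341 and 472) and the 20 µg/L arrays (131.5, 359 and 664). Such separation was seen for 17.8% of all probe sets against water and 18.2% against 20 µg/L. Neither of the 2 cxcl12a probe sets passed. Of 18 listed genes, 12 were on the array and 10 were tested. Against water at 50 µg/L there was 1 rise, no fall and a median of 0.02, where 4.48% of all probe sets were called.

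Transcripts that the oocyte supplies to the whole egg were described beside the germ plasm genes, whose mRNAs the egg also carries. The array values do not separate maternal from zygotic copies. Of 24 listed genes, 21 were on the array and 19 were tested, of which 10 rose at 50 µg/L against water and none fell (median 1.30, all probe sets 0.10). Of all probe sets tested, 4.48% were called in this comparison. This list, like the others, was drawn up with results of these data known, so its count is a description. The highest change was that of btg4, which recruits the deadenylase that shortens maternal mRNAs, with 3250.1, 3367 and 862 at 50 µg/L and 106, 135 and 104 in water, 2 of 3 in water above the tag level. Its log2 change was 4.20 (SE 0.49, limma adjusted p = 0.00546), or 4.15 after raising dim values. Next came cldnd, of the claudin family, with 3875 ± 2164 at 50 µg/L and 400.4 ± 60.3 in water (3.15, limma adjusted p = 0.00546). The kinase gene wee2, which holds back entry into division in the oocyte, averaged 1680 ± 422 at 50 µg/L and 244 ± 74.5 in water (2.80, limma adjusted p = 0.00754). The zinc finger gene cth1 rose by 2.77 (limma adjusted p = 0.0084). The gene fbxo43, whose product inhibits the anaphase-promoting complex, rose by 2.42 (limma adjusted p = 0.0084). The cyclin gene ccna1 averaged 3605 ± 1113 at 50 µg/L and 685 ± 266 in water (2.42, limma adjusted p = 0.00996). Among the machinery of mRNA clearance and microRNA processing, btg4 was the 1 gene of 22 tested whose leading probe set, the brightest, passed (30 listed, 23 on the array, median 0.15). The probe sets of 2 further genes of that list disagreed. For dgcr8, the microRNA processing partner, 1 of 3 passed (change 1.67, limma adjusted p = 0.0417), while the leading one had a change of 0.92 (0.0754). For the deadenylase complex gene cnot3b, 1 of 3 passed (change 1.05, limma adjusted p = 0.0495), while the leading one had 0.15 (0.883). The nuclease gene dicer1 had a change of -0.32 (0.742). Lists overlapped: h1m, zar1 and cpeb1b stood in both the assembly and the oocyte list, and btg4 in both the oocyte and the clearance list.

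At 20 µg/L against water no gene of any list passed the limma test. At 50 against 20 µg/L, 1 of 6 piRNA partners (asz1), 2 of 10 assembly genes (buc and h1m), none of 10 migration genes, 8 of 19 oocyte-supplied genes and 1 of 22 clearance genes (btg4) rose, and none fell, where 1.39% of all probe sets were called. Of the oocyte list, btg4 rose by 4.76, cldnd by 3.04, the histone mRNA-binding gene slbp2 by 3.00, ccna1 by 2.89, wee2 by 2.85 and cth1 by 2.56 on the log2 scale (limma adjusted p from 0.00374 to 0.0355). At 20 µg/L, btg4 and slbp2 were above the tag level on 1 of 3 arrays each, and with dim values raised their changes were 4.73 and 2.23. The 50 µg/L arrays of slbp2 (394 ± 201) also counted toward keeping it in the filter on low signal. The call of slbp2 was lost with quantile normalization (limma adjusted p = 0.0788). For wee2 the leading probe set alone of its 4 passed.

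Many of these list calls were lost when 1 array was left out of the fit. Without 50 µg/L replicate 1, one of the arrays that stood apart, limma called 0 probe sets at 50 µg/L against water (1486 at an unadjusted p under 0.05). The changes of asz1, buc, h1m, zar1, cxcr4b and btg4 were then 1.77, 2.41, 2.00, 1.15, 2.00 and 3.89 (limma adjusted p from 0.0566 to 0.176). Without 50 µg/L replicate 2 the calls of asz1, buc, h1m, zar1 and cxcr4b were lost as well (limma adjusted p from 0.0506 to 0.0784), and without control replicate 1 those of asz1 (0.0574), h1m (0.052) and zar1 (0.0826). Without control replicate 3, the other array that stood apart, all 6 passed, with limma adjusted p-values from 0.00611 to 0.0312. The call of zar1 was further lost without 50 µg/L replicate 3 (0.0692), without replicate 1 (0.0584) or 2 (0.0572) at 20 µg/L, and with quantile normalization (0.0674). At 50 against 20 µg/L, asz1, buc and h1m no longer passed when replicate 1 or 2 of either dose was left out (limma adjusted p from 0.0962 to 0.256), quantile normalization lost asz1 (0.063) and buc (0.12), and the fit with no filter on low signal lost buc (0.0673). The oocyte list had 10 calls with all arrays, 0 without 50 µg/L replicate 1, and 6 without 50 µg/L replicate 2 or without control replicate 1. With any other array left out it had 8 to 11 calls. At 50 against 20 µg/L its 8 calls became 1 when replicate 1 of either dose or replicate 2 at 20 µg/L was left out, and 2 without 50 µg/L replicate 2. With any other array left out there were 8 to 12 calls in that comparison.

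**Figure D4:**
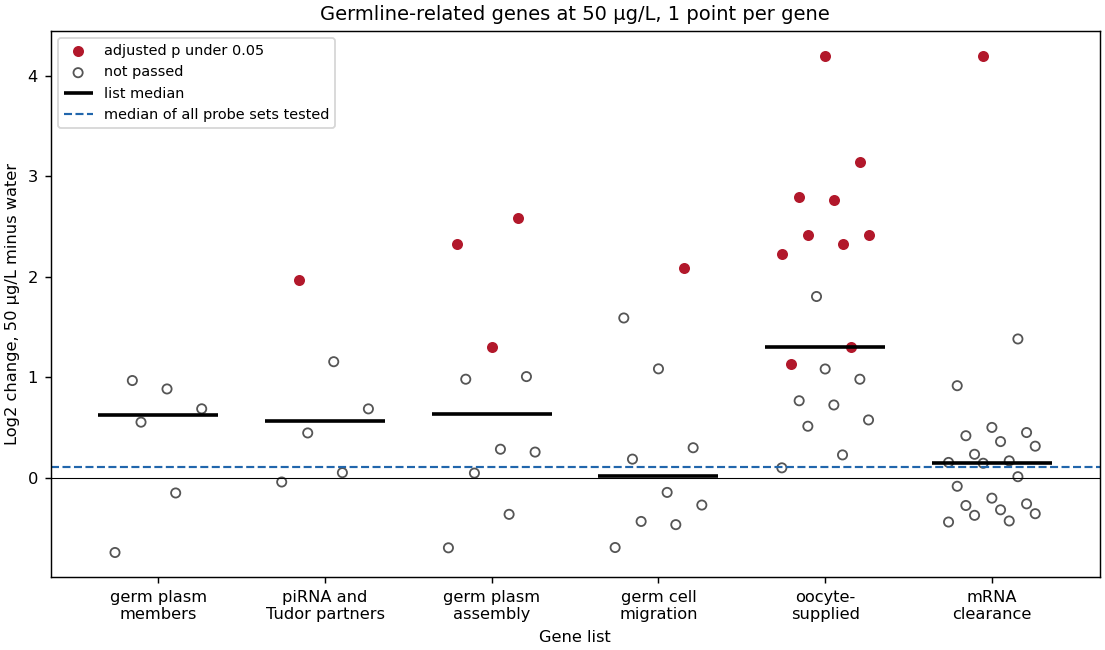
Log2 change at 50 µg/L against water of each tested gene, by gene list (1 point per gene). Filled points passed the limma test, bars are list medians and the dashed line is the median of all probe sets tested (0.10). No germ plasm member passed. The median was 0.62 for the members and 1.30 for the oocyte-supplied list. Members and lists were chosen with earlier results of these data known, so the medians are a description.

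Most markers of gastrula tissues did not pass the test at 50 µg/L. Of 19 tested, 15 did not pass, 3 rose against water (the mesendoderm genes gsc and mixl1 and the yolk syncytial layer gene hnf4a) and 1 fell (otx2b of the anterior ectoderm), with a median of 0.47. Of all probe sets tested, 4.48% were called in this comparison, a smaller share than among these markers. The markers were also chosen with earlier results of these data known, so their count is a description. For hnf4a 1 of 2 probe sets passed. The mesendoderm regulator mixl1 averaged 1022 ± 332 at 50 µg/L and 166 ± 58.5 in water (change 2.63, limma adjusted p = 0.0084), and otx2b 236 ± 61.7 at 50 µg/L and 819 ± 256 in water (change -1.77, limma adjusted p = 0.0156). The enveloping layer keratin genes krt4, krt5 and krt18a.1 had changes between -0.15 and -0.07. At 50 against 20 µg/L, mixl1 rose and otx2b fell, where 1.39% of all probe sets were called. Neither call there held when replicate 1 or 2 of either dose was left out. Against water no marker passed without 50 µg/L replicate 1, and the fall of otx2b was lost without control replicate 1. The 3 rises became 1 without 50 µg/L replicate 2, without replicate 1 or 2 at 20 µg/L, or without control replicate 1. They became 2 without replicate 3 at 50 µg/L or in water, and 4 without control replicate 2. In that last fit 3 markers fell in place of 1, and 7.75% of all probe sets were called. The summed signal of the 19 markers was 90650 to 108400 in water, 92632 to 102950 at 20 µg/L and 101630 to 120310 at 50 µg/L, and none was at 0 in a whole group. The keratin genes krt4, krt5 and krt18a.1 were the largest parts of these sums (means of 21395, 14973 and 26290 in water). The sums therefore say little about the other markers. The 6 later somatic markers summed to 363 to 546 in water, 290 to 365 at 20 µg/L and 225 to 365 at 50 µg/L. The muscle actin gene actc1b, the 1 of them that was tested, averaged 80.0 ± 49.9 at 50 µg/L and 224 ± 31.7 in water, and was above the tag level on 1 of 3 arrays at 50 µg/L. It was at least 2.35-fold lower at 50 µg/L, with dim values raised to that level (limma adjusted p = 0.0453 on the values as deposited), and its second probe set did not pass (0.162). The part of tissue make-up or stage in the germ plasm values was not tested.

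The genes whose signal followed each member most closely over the 9 arrays were found by Pearson correlation of log2 signals, given as a description. The arrays share their scaling and the dose groups, and the highest of so many coefficients is large by construction. For dnd1 they were stn1, of the complex that protects telomeres (r = 0.985), tdrd7a (0.978) and qtrt1, of a tRNA-modifying enzyme (0.957). For tdrd7a they were dnd1 (0.978), stn1 (0.976) and mcu, the mitochondrial calcium channel (0.967). The members dnd1 and tdrd7a were therefore each among the 3 nearest genes of the other, which no other pair of members was. For nanos3 they were si:dkey-152b24.6 (0.976), spryd7b (0.969) and swi5 (0.952), and for ddx4 thoc2 (0.968), maf1a (0.968) and htatsf1 (0.957). For dazl they were the ATP synthase subunit gene atp5mf (0.968), ehd1b (0.936) and rpf2 (0.932), and for piwil1 thyn1 (0.964), zgc:162396 (0.936) and ap3m1 (0.93). At 50 µg/L against water, mcu and qtrt1 rose by 1.41 and 1.21 and atp5mf fell by 1.06 on the log2 scale (limma adjusted p from 0.0449 to 0.0488), and the other neighbours did not pass. The test called 4.48% of all probe sets there. Neighbours were picked for likeness to a member over these same arrays, so their directions follow in part from that choice and are no separate result.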

How the data were processed

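Total RNA of 9 samples (3 groups of 3) was measured on 1 Affymetrix array each. The deposited values are intensity values (MAS5 signals), which the authors made with GCOS and MAS5, per the submitters' processing notes; versions are not given in the sources used here. Trimming 2% at each end gave each array a mean near 500.1, so the authors had scaled each array. The table held 0 columns of any sample outside the series.

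Fits used log2(value + 1). The 115 manufacturer's controls were left out, as was the lowest 40% of the remaining probe sets by mean log2 value, so that 9301 were tested. That mean ran over all 9 arrays, so a probe set bright in a single group could be kept. All 9 arrays were fitted together with limma 3.58.1 in R 4.3.3 (group means, eBayes with intensity trend, two-sided, Benjamini-Hochberg over all kept probe sets). The scripts were tested on simulated data. The number of arrays limits the precision. Detection calls were not used here.

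Gene names came from the platform annotation, updated through Entrez identifiers: 10802 probe sets had 1 gene, 135 several and 4680 none. No coordinates or sequences were used. The probe set with the highest mean log2 value stood for its gene. Named were all members, up to 6 genes with the largest change among those that passed in a list, and the 3 nearest genes of each member. Other genes of the lists and the markers were named after their values were seen. The members and the 7 lists were chosen with earlier results of these data known.

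Alternatives covered offset, filter, normalization, array weights, replicate and export-format blocks, dim values, arrays in the fit, prior, probe set rule and left-out arrays. List counts under left-out arrays and quantile normalization were added after seeing the data.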

Additional observations from a re-analysis of the deposited data

How the results depend on the processing

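At 50 µg/L against water no member gene passed except with array weights (1, tdrd7a, adjusted p = 0.0135) and among the left-out arrays, which gave 0 to 1 (ddx4, without control replicate 2). At 50 against 20 µg/L the count was 3 with array weights (tdrd7a, dnd1 and nanos3, adjusted p 0.0062 to 0.0199), 2 among the arrays with 1 decimal only, 1 with only the 2 groups compared, and 0 to 1 with arrays left out (tdrd7a, without control replicate 3, adjusted p = 0.0385). Array weights called 18.5% and 20.8% of all probe sets in these comparisons, and the arrays with 1 decimal 12.6% in the second. The fit without control replicate 2 called 7.75% in the first. In the second, the fit of only the 2 groups called 4.23%, and the fit without control replicate 3 called 3.54%. All these settings called more probe sets in general than the main fit (4.48% and 1.39%). At 20 µg/L no member passed in any setting run. With the lowest 60% left out, ddx4 and nanos3 alone were tested.

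Direction turned, with no call on either side, for dazl at 50 against 20 µg/L (-0.33 under quantile normalization, -0.13 to 0.24 with arrays left out, below 0 without 50 µg/L replicate 1 or 2 or 20 µg/L replicate 3), for piwil1 (-0.0511 under quantile normalization at 50 against 20 µg/L, 0.0672 with array weights and 0.14 as the mean of its probe sets at 50 µg/L against water), for ddx4 at 50 against 20 µg/L (-0.0196 to 0.34 with arrays left out, below 0 without 50 µg/L replicate 3) and for tdrd7a at 20 µg/L against water (-0.35 to 0.0221 with arrays left out, above 0 without control replicate 3). The cause was not tested.

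Over all probe sets, 417 were called at 50 µg/L against water (321 higher, 96 lower). Quantile normalization called 332 (209 higher, 123 lower), the replicate block 240, the fit of only the 2 groups 196, no filter 277, array weights 1724, and left-out arrays 0 (without 50 µg/L replicate 1) to 721 (without control replicate 2). At 50 against 20 µg/L, 129 were called, against 52 with quantile normalization, 54 with the replicate block, 79 without a filter, 195 with an offset of 32, 281 with dim values raised, 393 with the 2 groups, 1171 among arrays with 1 decimal, 1934 with array weights, and 1 (without 50 µg/L replicate 1, and without either of replicates 1 and 2 at 20 µg/L) to 449 (without 20 µg/L replicate 3) with arrays left out. At 20 µg/L against water the arrays with 1 decimal called 22, against 0. The replicate block called 0 member genes in each comparison (lowest adjusted p 0.0835, 0.627 and 0.0972). It lost zar1 at 50 µg/L against water (0.0594) and buc, h1m (both 0.0627), fbxo43 (0.0587) and slbp2 (0.067) at 50 against 20 µg/L. Quantile normalization lost fbxo43 there (0.0788). The fit of 2 groups lost zar1 (0.0726). The labels state no pairing by replicate number. Deviations of same-numbered arrays correlated between -0.16 and 0.23 (median 0.06), and those of other pairs between -0.31 and 0.21 (median -0.01). With 3 arrays per group, these values cannot decide whether replicate numbers mark pairs. The distance of many probe sets from the tag level was small, which limits dazl and the second dnd1 probe set.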
